A study of Homo sapiens with 8 samples.

Results

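WM983B and SK-Mel5 are established human melanoma cell lines, and the arrays compared here give their RNA levels in control cells not depleted of p300. The WM983B scrambled group held 2 arrays of WM983B cells transduced with a pLKO1 lentivirus carrying a scrambled control short hairpin RNA (shRNA), and the SK-Mel5 scrambled group held 2 arrays of SK-Mel5 cells carrying the same kind of virus. These 4 arrays were chosen by their labels from the 8 arrays of the study. The other 4 arrays (WM983B shp300 and SK-Mel5 shp300, 2 each) came from the same lines carrying an shRNA that targets EP300, which encodes p300, an enzyme that acetylates histones. All cells were transduced with polybrene at 8 µg/mL, selected with puromycin at 1.5 µg/mL from 48 h after transduction, and grown in medium with 10% fetal bovine serum. Each group is 1 line, so a difference between the groups is a difference between 2 lines and not between classes of melanoma. All cells had been infected and drug-selected, and no parental cells were among the samples used.

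Melanocytes are pigment cells that arise from the neural crest, and melanoma is their tumour. The transcription factor MITF, with SOX10 and PAX3 upstream of it, switches on the enzymes and transporters that make melanin inside melanosomes. Melanoma lines keep this programme to different degrees and also differ in adhesion genes, growth factor receptors, cell cycle control, antigen presentation and lost stretches of chromosome.

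Each RNA sample was hybridised to 1 Affymetrix Human Gene 2.0 ST array, which reports 23786 gene features. The deposited log2 values had array medians of 4.26 and 4.26 in WM983B, against 3.01 and 2.99 in SK-Mel5, so the lines had apparently been normalized apart. All 8 arrays were therefore brought to 1 common distribution (quantile normalization), and every level below is a normalized log2 level. The arrays of a group correlated at r = 0.995 in WM983B and 0.994 in SK-Mel5 across features, while arrays of different lines correlated at 0.916 to 0.919. Line and any difference in how the arrays of each line were run or processed cannot be told apart. A level was taken as near background when its mean in a line was not above the 95th percentile of the 354 olfactory receptor features, genes used mainly in the nose. That limit was 2.95 in WM983B and 3.03 in SK-Mel5. Where a gene was near background in a line, the fold is given as a lower bound, the mean of the higher line over whichever is larger in the other line, its own mean or its limit. No label states that the 2 arrays of a line are independent cultures, and each p-value therefore reflects array-to-array spread that could be purely technical.

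The 2 lines differed at 4383 features, 18.4% of all, where called means an adjusted p under 0.05 by limma and at least a 2-fold difference. Of these, 2305 were higher in WM983B (9.69%) and 2078 were lower (8.74%). At any fold, an adjusted p under 0.05 was reached by 48.4% of features, and 1038 of the called features differed at least 4-fold (561 higher and 477 lower in WM983B). A feature was above background in either line in 14999 cases, and among those 14.7% were higher and 13.3% lower in WM983B. Of the features higher in WM983B, 872 were near background in SK-Mel5. Of those lower in WM983B, 590 were near background in WM983B. These counts include 181 called features near background in both lines (103 higher and 78 lower), and 2921 called features were above background in both.

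**Figure D1:**
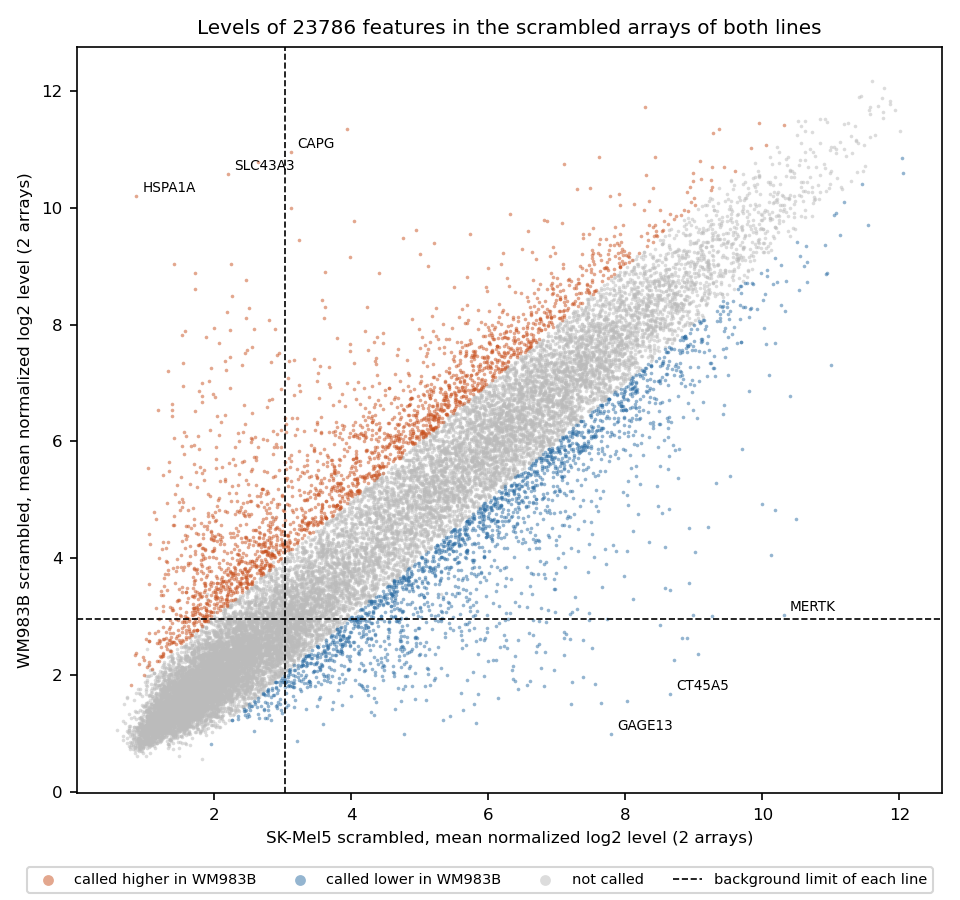
Mean normalized log2 level of each feature in the SK-Mel5 scrambled arrays (horizontal) and the WM983B scrambled arrays (vertical), with the background limit of each line as a dashed line. Orange points are the 2305 features called higher in WM983B, blue points the 2078 called lower, and the 3 largest differences in each direction are named.

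The balance of these directions depends on the scaling. The median difference over all features was -0.03 after quantile normalization. It was 0.93 in the deposited values, -0.33 after centring each array on its median, -0.34 after centring and scaling each array to a common median absolute deviation (MAD), 0.00 after cyclic loess and -0.01 on percentile ranks turned into normal scores. Olfactory receptors had medians of -0.06 after quantile normalization, 0.52 in the deposited values and -0.75 after centring, and 58 ribosomal protein genes had -0.10, 0.95 and -0.32 in the same order. MAD scaling left the ribosomal genes at -0.93. The direction of each gene list below was therefore read relative to the median of all features under that scaling, and a list is said to keep its direction where this relative median had the same sign under all 5 other scalings. These scalings are not separate checks. Centring and the deposited values give the same relative median by construction. Cyclic loess started from the quantile-normalized values, and the normal scores rest on the same ranks. The lists overlap in some genes and were chosen with earlier results of these data known. Counts of members called are to be read beside the shares over all features, 9.69% higher and 8.74% lower. Many lists hold mostly features above background, for which these shares were 14.7% and 13.3%. A list with shares near these does not stand apart from other features.

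Both lines carried the melanocyte programme. All 9 measured melanocyte markers were above background in both lines. MITF had levels of 8.35 and 8.30 in the WM983B arrays, against 7.89 and 7.97 in the SK-Mel5 arrays, a difference of 0.40 (SE 0.15, adjusted p = 0.056) that was not called. SOX10, the neural crest factor upstream of MITF, was at 8.29 and 8.55 in WM983B, against 8.40 and 8.34 in SK-Mel5, and these ranges overlapped. PAX3, which binds the MITF promoter with SOX10, differed by 0.66 (adjusted p = 0.0028), short of 2-fold. The 1 marker called higher in WM983B was S100B, a calcium-binding protein used as a melanoma marker in pathology, with levels of 10.82 and 10.68 in WM983B, against 7.19 and 7.01 in SK-Mel5 (12.6-fold, adjusted p = 8.8e-07).

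Of 21 measured pigment and melanosome genes, all above background in both lines, 5 were called higher and 4 lower in WM983B, and 12 were not called. The median difference was 0.04, and relative to all features it turned negative under MAD scaling, where 1 member was higher and 12 were lower. It was also -0.07 without replicate 2 of WM983B, 0.11 without replicate 1 of WM983B and 0.01 without replicate 1 of SK-Mel5. TYRP1, a melanin-synthesis enzyme next in line to tyrosinase, was at 9.77 and 9.65 in WM983B, against 11.56 and 11.52 in SK-Mel5 (-1.83, adjusted p = 1.7e-05). OCA2, a melanosomal membrane protein that sets melanosome acidity, was at 8.05 and 8.16 in WM983B, against 9.67 and 9.67 in SK-Mel5 (-1.57). TPCN2, an ion channel of melanosomes, differed by -1.67 and RAB38, a small GTPase that delivers tyrosinase to melanosomes, by -1.10. The arrays of the lines overlapped in none of these genes, nor in any of the 4383 called features. With 2 arrays per line, that follows largely from the call rule and adds no separate support.

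The pigment genes higher in WM983B included MLPH and RAB27A, which carry melanosomes along actin. MLPH (melanophilin), which links RAB27A to the motor myosin Va, was at 8.01 and 8.37 in WM983B, against 6.37 and 6.17 in SK-Mel5 (1.92, adjusted p = 5.4e-05). RAB27A, the GTPase that marks melanosomes for transport, was at 8.67 in both WM983B arrays, against 7.06 and 6.96 in SK-Mel5 (1.66, or 3.17-fold). MYO5A, the motor itself, did not pass (0.13, adjusted p = 0.38). BLOC1S1, a subunit of a complex that sorts cargo to melanosomes, was higher by 1.87, and SLC24A5, a melanosomal ion exchanger, by 1.37 (-0.05 under MAD scaling). HPS1, another sorting subunit, differed by 1.06 and by 0.92 without replicate 2 of WM983B. The pigment genes TYR (-0.84), MLANA (-0.68) and PMEL (0.49) differed by less than 2-fold, while GPR143 (0.02), GPNMB (0.04) and the melanocortin receptor gene MC1R (0.05) had overlapping arrays.

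The promoters of 3 of these genes are printed because they carry the sequence CATGTG, the core that MITF binds, in genes that differed in opposite directions. RefSeq's table (build GRCh38.p14, 250 bases before to 50 after each gene's start) held 17 of the 21 pigment genes. Of these, 8 carried CATGTG on either strand (read as CACATG on the other), against 11.2% of 27305 promoters. TYRP1 (chr9:12693135-12693434, plus strand) and OCA2 (chr15:28099266-28099565, minus strand) were lower in WM983B, and SLC24A5 (chr15:48120740-48121039, plus strand) was higher, except under MAD scaling. Capitals mark CATGTG or CACATG.
TYRP1: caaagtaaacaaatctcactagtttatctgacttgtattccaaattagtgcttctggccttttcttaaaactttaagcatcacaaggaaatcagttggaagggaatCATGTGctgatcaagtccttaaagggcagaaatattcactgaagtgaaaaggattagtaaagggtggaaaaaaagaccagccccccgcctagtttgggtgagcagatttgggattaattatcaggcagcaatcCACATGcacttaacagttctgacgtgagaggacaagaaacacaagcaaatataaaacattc
OCA2: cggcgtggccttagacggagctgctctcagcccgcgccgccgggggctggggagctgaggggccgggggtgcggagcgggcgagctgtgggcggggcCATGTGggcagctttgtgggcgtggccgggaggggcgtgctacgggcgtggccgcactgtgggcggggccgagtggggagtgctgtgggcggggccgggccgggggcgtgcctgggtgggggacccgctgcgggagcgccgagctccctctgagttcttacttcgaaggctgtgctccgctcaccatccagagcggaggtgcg
SLC24A5: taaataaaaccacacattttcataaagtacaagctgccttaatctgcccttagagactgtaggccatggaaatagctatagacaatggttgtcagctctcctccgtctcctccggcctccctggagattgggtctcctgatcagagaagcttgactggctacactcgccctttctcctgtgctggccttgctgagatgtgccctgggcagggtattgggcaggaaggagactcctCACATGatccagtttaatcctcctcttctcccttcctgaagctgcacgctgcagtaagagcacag
TYRP1 held the core 2 times, OCA2 and SLC24A5 1 time each. A match describes these letters only and does not show binding.

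Among 25 neural crest and melanocyte transcription factors, 5 were called higher and 5 lower in WM983B, with a median of -0.21 that kept its direction. SOX2, a stem cell factor, was at 4.55 and 4.81 in WM983B, against 1.67 and 1.74 in SK-Mel5, which lay near background (at least 3.13-fold, adjusted p = 3.9e-06). FOXD3, an early neural crest factor, was at 4.30 and 4.18 in WM983B, against 2.22 and 2.06 in SK-Mel5 (at least 2.31-fold). SOX5, which modulates SOX10 activity, was higher by 1.84, ID3, an inhibitor of basic helix-loop-helix factors, by 1.60 and GLI3, a Hedgehog effector, by 1.52. In the other direction, SOX9 was at 3.43 and 3.22 in WM983B, against 5.28 and 5.26 in SK-Mel5 (-1.94). SOX4 differed by -1.99, ETS1, an effector of growth factor signalling, by -1.43 and TFE3, the MITF relative that drives lysosome genes, by -1.40. MSX2 was at 3.03 and 2.57 in WM983B, against 5.00 and 4.93 in SK-Mel5 (at least 4.04-fold lower). SNAI2 (-0.26), IRF4 (-0.31) and TFAP2A (-0.94) were not called, although TFAP2A was at -1.08 and called without replicate 2 of WM983B.

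Published MITF targets outside pigmentation split as well, with 6 of 18 called higher and 4 lower in WM983B and a median of 0.65 that turned negative, relative to all features, under MAD scaling. CTSK (cathepsin K, a lysosomal protease) was at 8.65 and 8.34 in WM983B, against 2.25 and 2.27 in SK-Mel5 (at least 44.1-fold, adjusted p = 1.8e-07). BIRC7, a caspase inhibitor found in melanoma, was at 8.13 and 8.09 in WM983B, against 3.75 and 3.44 in SK-Mel5 (22.9-fold). APOE, the apolipoprotein E gene, was higher by 3.58. GMPR, a purine enzyme, differed by -2.05, TBC1D16, a regulator of membrane traffic, by -1.95 and PPARGC1A, the coactivator that drives mitochondrial genes, by -1.58. In PPARGC1A the WM983B arrays were at 9.02 and 9.13, against 10.69 and 10.62 in SK-Mel5.

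**Figure D2:**
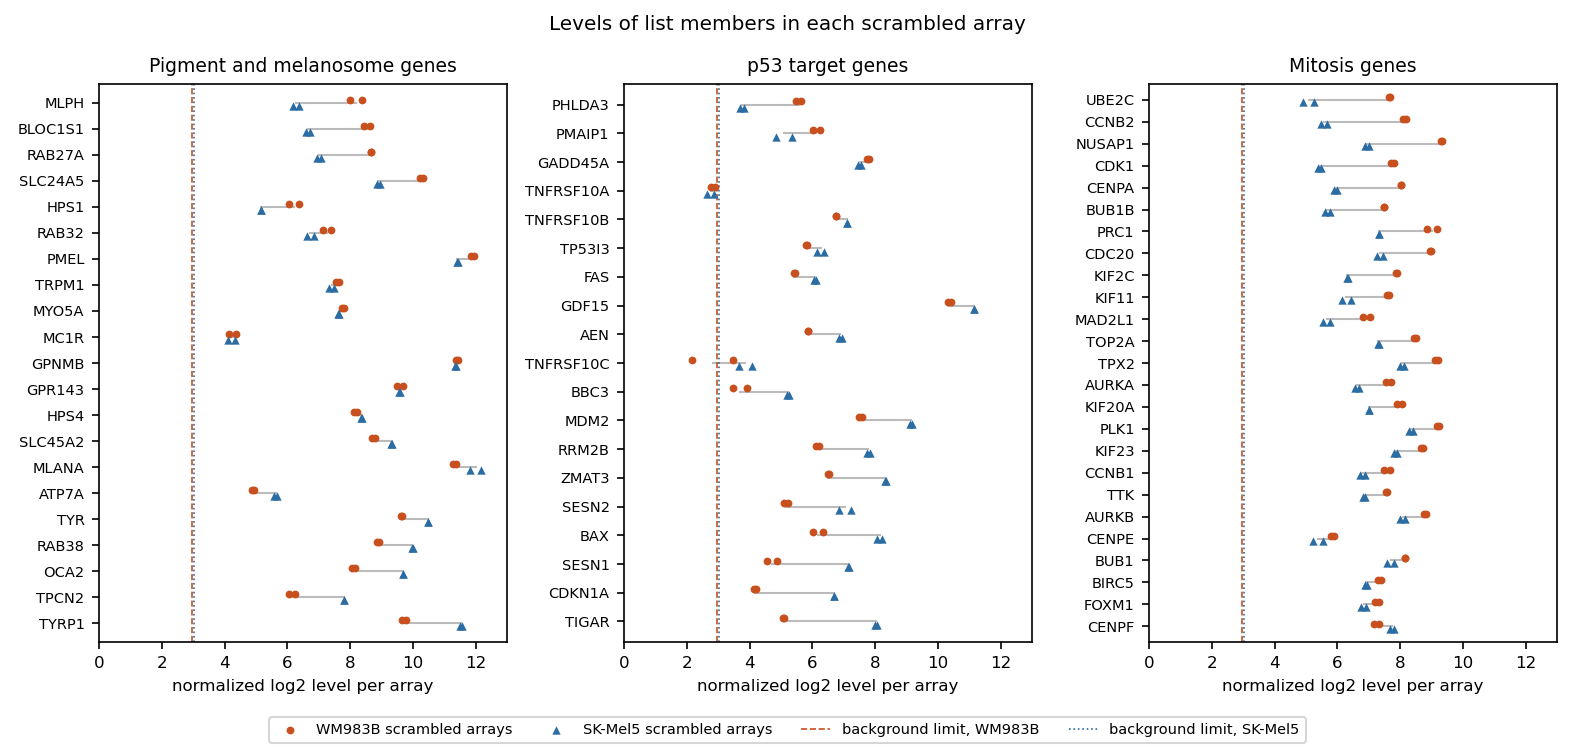
Normalized log2 level of each measured pigment, p53 target and mitosis gene in each scrambled array (WM983B arrays as circles, SK-Mel5 arrays as triangles, grey bars joining the group means), ordered by the difference. Pigment genes lie on both sides, most p53 targets lie lower in WM983B (10 called lower, 2 higher) and 24 of 25 mitosis genes lie higher in it (14 called).

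Many of the largest differences lay in genes near background in 1 line and high in the other. HSPA1A, which encodes the heat-inducible chaperone HSP70, had the largest, at 10.24 and 10.17 in WM983B, against 1.01 and 0.71 in SK-Mel5 (at least 144-fold, adjusted p = 7.6e-08). Its level ranked at percentile 99.3 of the array in WM983B and 0.979 in SK-Mel5. SLC43A3, a purine transporter, was at 10.60 and 10.56 in WM983B, against 2.13 and 2.26 in SK-Mel5 (at least 187-fold). CAPG, which caps actin filaments, was at 10.90 and 11.01 in WM983B, against 3.26 and 2.96 in SK-Mel5, whose mean lay just above its limit (7.84, or 230-fold). PYCARD, the adaptor of inflammasomes, was at 9.0 and 9.07 in WM983B, against 1.61 and 1.22 in SK-Mel5 (at least 64.3-fold). ENPP2 (autotaxin, which makes lysophosphatidic acid) was at least 64.5-fold higher, FXYD3, a regulator of the sodium pump, at least 53.2-fold, and CD200, an immune-regulatory surface protein, at least 27.7-fold. In all of these genes both SK-Mel5 arrays lay far below both WM983B arrays, as the choice of the largest differences without overlap required.

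Some of these genes are used by most cells. HEXA, a subunit of the lysosomal enzyme hexosaminidase, was at 8.61 and 8.60 in WM983B, against 1.71 and 1.75 in SK-Mel5. SERPINH1, the collagen chaperone HSP47, was at 8.17 and 8.26 in WM983B, against 2.31 and 2.07 in SK-Mel5. TMSB4X, which binds actin monomers, was at 10.07 and 9.95 in WM983B, against 3.90 and 2.33 in SK-Mel5, the widest gap between the SK-Mel5 arrays among the leading genes. The table holds 1 value per gene and no probe values, so a low RNA level and a feature whose probes failed in the SK-Mel5 arrays cannot be told apart. Of the histone genes among the largest differences, H3C11 was at 11.25 and 11.48 in WM983B, against 4.06 and 3.83 in SK-Mel5, and H1-5 was higher by 4.73. Near-identical histone, HSP70, GAGE, CT45, HLA and metallothionein genes can share probe signal, so which copy differed is uncertain. Among genes above background in both lines, ANXA1 (annexin A1) was higher by 5.75, PLTP, a phospholipid transfer protein, by 5.17, SLC27A3, a fatty acid transporter family member, by 4.85, UCN2, a peptide hormone of the corticotropin-releasing family, by 6.21 and LINC02946 by 4.68.

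MERTK led the genes lower in WM983B. This receptor tyrosine kinase, which clears dying cells and signals survival, was at 2.95 and 3.10 in WM983B, against 10.31 and 10.30 in SK-Mel5 (-7.28, or 155-fold, adjusted p = 7.6e-08). PAPSS2, which makes the sulfate donor, was at 2.29 and 2.22 in WM983B, against 8.72 and 8.70 in SK-Mel5 (at least 54.1-fold lower). MGP (matrix Gla protein, an inhibitor of calcification) was at 2.58 and 2.70 in WM983B, against 8.91 and 8.90 in SK-Mel5 (at least 61.9-fold lower). EDA2R, a tumour necrosis factor receptor family member, was at least 59.0-fold lower, and IL13RA2, the decoy receptor of interleukin 13, at least 25.9-fold. A2M, a broad protease inhibitor, was at 3.75 and 4.35 in WM983B, against 10.10 and 10.15 in SK-Mel5. STC1, a secreted glycoprotein of mineral balance, differed by -5.96, and PDK4, which restrains pyruvate entry to the mitochondrion, by -5.81. PKD1L1-AS1 (at least 33.6-fold lower) and GCSAML (at least 19-fold lower) complete the 15 with the genes of the families below. Among genes above background in both lines, SLC38A8 and DNER, a Notch ligand of neurons, each differed by -5.36, SLC8A1, a sodium-calcium exchanger, by -5.21, and CYB5R2, a reductase, by -4.90.

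**Figure D3:**
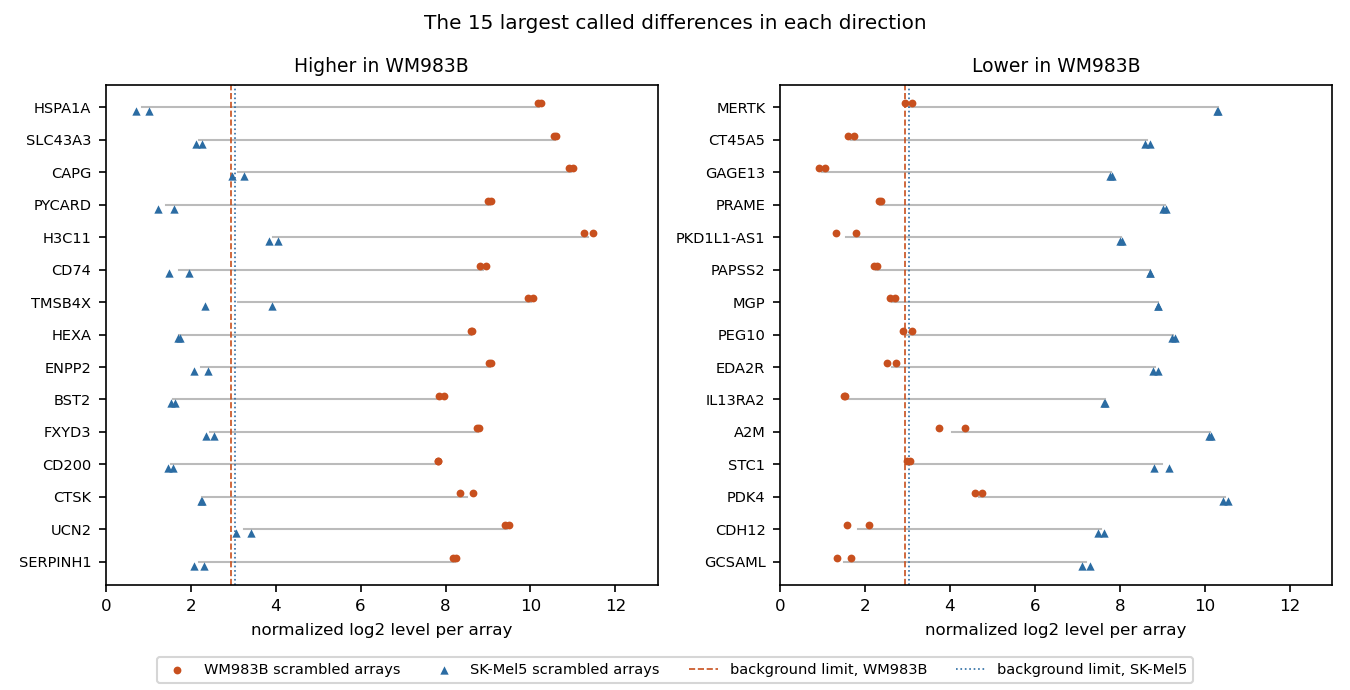
Normalized log2 level in each scrambled array of the 15 genes with the largest called difference in each direction (WM983B arrays as circles, SK-Mel5 arrays as triangles), with each line's background limit as a vertical line. In no gene shown do the arrays of the lines overlap, as the choice of genes required. The closest pair of lines in the left panel is SERPINH1, at 8.17 and 8.26 in WM983B against 2.31 and 2.07 in SK-Mel5.

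Markers of the dedifferentiated state of melanoma were more often higher than lower in WM983B. Of 20 measured markers of dedifferentiated or invasive melanoma, 9 were called higher and 1 lower in WM983B, with a median of 0.73 that kept its direction. TNC (tenascin C, a matrix protein of invading tissue) was at 7.69 and 7.91 in WM983B, against 1.80 and 1.95 in SK-Mel5 (at least 27.2-fold, adjusted p = 3.5e-07). THBS1, the matrix protein thrombospondin 1, was at 7.92 and 7.93 in WM983B, against 2.74 and 2.43 in SK-Mel5 (at least 29.7-fold). WNT5A, a Wnt ligand linked to melanoma invasion, was at 4.55 and 4.13 in WM983B, against 2.29 and 2.50 in SK-Mel5 (at least 2.47-fold). SERPINE2, a protease inhibitor, was higher by 1.88 and LOXL2, which cross-links collagen, by 1.86. EGFR was the member lower in WM983B, at 3.03 and 3.01 in WM983B, against 5.22 and 5.11 in SK-Mel5 (-2.15).

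Cadherins differed by member. CDH2 (N-cadherin) was at 7.43 and 7.53 in WM983B, against 2.89 and 2.93 in SK-Mel5 (at least 21.8-fold), and CDH3 (P-cadherin) was at 5.54 and 5.48 in WM983B, against 1.68 and 2.01 in SK-Mel5 (at least 5.58-fold). In the other direction, CDH12 was at 1.58 and 2.10 in WM983B, against 7.62 and 7.50 in SK-Mel5 (at least 24.4-fold lower), and CDH10 was at least 2.60-fold lower. Of the transcription factors that repress E-cadherin, SNAI1 was higher by 1.23, while ZEB1 was at 1.43 and 2.19 in WM983B, against 4.90 and 4.87 in SK-Mel5 (at least 3.81-fold lower). Over the 15 measured cadherins and these factors, 3 were higher and 4 lower.

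Of 20 integrins, 6 were called higher and 2 lower in WM983B. ITGB3, the beta 3 subunit that appears as melanoma becomes invasive, was at 8.87 and 8.94 in WM983B, against 3.84 and 3.39 in SK-Mel5 (5.29, or 39.1-fold, adjusted p = 7.1e-07). ITGA4 was higher by 3.29 and ITGB8 by 2.35, while ITGA9 differed by -2.34. The list's median of 0.23 kept its direction. Matrix genes split evenly, with 9 of 34 higher and 8 lower. Fibronectin (FN1) was at 10.25 and 10.44 in WM983B, against 7.53 and 7.44 in SK-Mel5 (2.86), and TGFBI, a matrix protein induced by transforming growth factor beta, was higher by 4.08. VCAN (versican, a matrix proteoglycan) was at 2.99 and 3.62 in WM983B, against 8.16 and 8.05 in SK-Mel5 (-4.80), and LAMC1, a laminin chain, differed by -2.26. Among 25 proteases of matrix and clotting with their inhibitors, 5 were higher and 3 lower. PLAUR, the urokinase receptor, was higher by 2.43, and MMP8, a neutrophil-type collagenase, was at least 10.8-fold lower.

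Growth factor receptors were more often lower than higher in WM983B. Of 29 receptor tyrosine kinases and other growth factor receptors, 3 were called higher and 9 lower, and the median of -0.42 kept its direction. MET, the receptor of hepatocyte growth factor, was at 6.72 and 6.84 in WM983B, against 10.43 and 10.38 in SK-Mel5 (-3.62, adjusted p = 5.0e-07). FGFR1, a fibroblast growth factor receptor, was at 4.37 and 4.41 in WM983B, against 6.68 and 6.69 in SK-Mel5 (-2.29). In the other direction, ERBB3, the neuregulin receptor, was at 7.34 and 7.40 in WM983B, against 3.05 and 3.14 in SK-Mel5 (4.28), and KIT, the stem cell factor receptor of melanocytes, was at 4.62 and 4.53 in WM983B, against 2.56 and 2.18 in SK-Mel5 (at least 2.92-fold).

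Ephrins and their receptors, which signal at cell contacts, were lower in WM983B in 9 of 18 members and higher in 1 (2 without replicate 2 of either line). Their median of -1.0 kept its direction. EPHA4 was at 3.05 and 3.23 in WM983B, against 6.75 and 6.78 in SK-Mel5 (-3.63). EPHA7 was at 1.98 and 1.97 in WM983B, against 5.97 and 5.91 in SK-Mel5 (at least 7.92-fold lower). The ligands EFNA1 (-3.15), EFNA3 (-2.89) and EFNA2 (-2.43) were lower along with them. Semaphorins, plexins and neuropilins, another guidance family, had 4 of 26 members higher and 5 lower. SEMA3B was higher by 3.22, NRP1, a semaphorin and VEGF co-receptor, was at least 2.78-fold higher, and SEMA3C (-2.94), SEMA3A (-1.86) and SEMA3E (at least 3.76-fold lower) ran the other way.

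Secreted factors of the transforming growth factor beta and Wnt families went both ways. Of 26 TGF-beta and BMP genes, 5 were higher and 6 lower in WM983B. BMP4 was at 2.10 and 1.80 in WM983B, against 5.18 and 5.27 in SK-Mel5 (at least 4.82-fold lower), TGFB1 differed by -2.05, and PMEPA1, a feedback inhibitor of the pathway, was at least 3.72-fold higher. Of 29 Wnt and Notch genes, 5 were higher and 7 lower. The Wnt antagonist DKK1 was at 4.69 and 4.76 in WM983B, against 1.63 and 1.19 in SK-Mel5 (at least 3.24-fold), and the Notch target HEY1 was higher by 2.90. The medians of these lists lay near 0, at -0.17 and -0.04, and changed sign relative to all features under 3 and 4 of the 5 other scalings. In both lists the deposited and the centred values, which give the same relative median, were among these. The TGF-beta median was -0.11 without replicate 2 of WM983B. The Wnt and Notch median was -0.01 without that array or without replicate 1 of SK-Mel5, and -0.18 without replicate 2 of SK-Mel5.

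**Figure D4:**
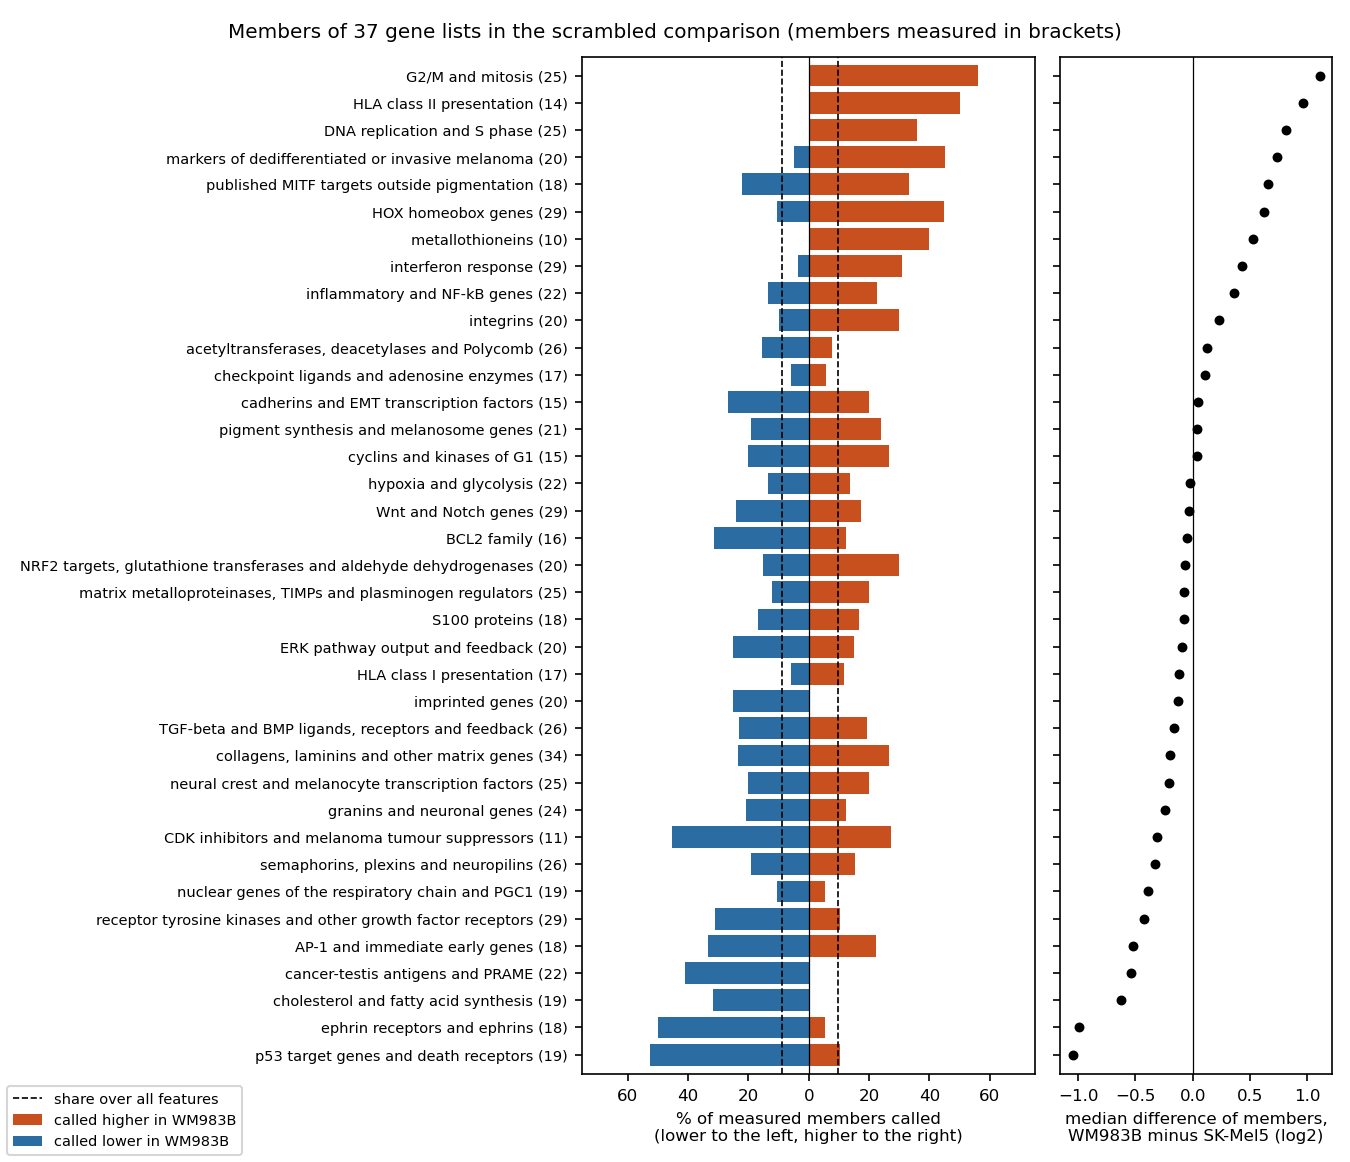
For each of 37 gene lists, the share of measured members called higher (right, orange) and lower (left, blue) in WM983B, with the shares over all features (9.69% and 8.74%) as dashed lines, and at right the median difference, WM983B minus SK-Mel5. The highest medians belong to mitosis (1.11) and HLA class II (0.96) genes and the lowest to p53 targets (-1.05) and ephrins (-1.0). The median of all features moves to 0.93 in the deposited values. Among features above background in either line the shares are 14.7% higher and 13.3% lower, which are not drawn.

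The cell cycle inhibitors of chromosome 9p marked the lines apart. CDKN2A, which encodes the inhibitors p16 and p14ARF, was at 5.20 and 5.23 in WM983B, against 1.80 and 1.70 in SK-Mel5, near background (at least 4.54-fold, adjusted p = 3.2e-06). CDKN2B, which encodes the inhibitor p15, was at 4.19 and 4.17 in WM983B, against 1.75 and 1.91 in SK-Mel5 (at least 2.21-fold). MTAP, the neighbouring methionine salvage enzyme, was at 6.11 and 6.31 in WM983B, against 2.94 and 2.99 in SK-Mel5 (at least 9.03-fold). The neighbours were then read in RefSeq gene order, chosen after these values were seen. From MTAP to C9orf72, 21 genes were measured, of which 12 were above background in WM983B and 0 in SK-Mel5. These 12 passed the background filter through WM983B alone, so that all 12 were called higher follows largely from that choice. The other 9 were near background in both lines, and none of them was called. PLAA, a ubiquitin-binding protein, averaged 6.43 in WM983B and 1.39 in SK-Mel5, CAAP1 averaged 5.10 and 1.43 in the same order, and MOB3B 5.95 and 2.91. On the near side KLHL9 averaged 5.99 in WM983B and 6.14 in SK-Mel5, and on the far side ACO1 averaged 6.89 in WM983B and 8.35 in SK-Mel5. KLHL9 and ACO1 were the nearest genes on each side that were above background in either line, and both were well above background in SK-Mel5. Of the 10 genes above background in either line from ACO1 to B4GALT1, 1 was near background in SK-Mel5. Genes near background in both lines are left out of these 10, whereas the 21 above include them. DNA was not measured.

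**Figure D5:**
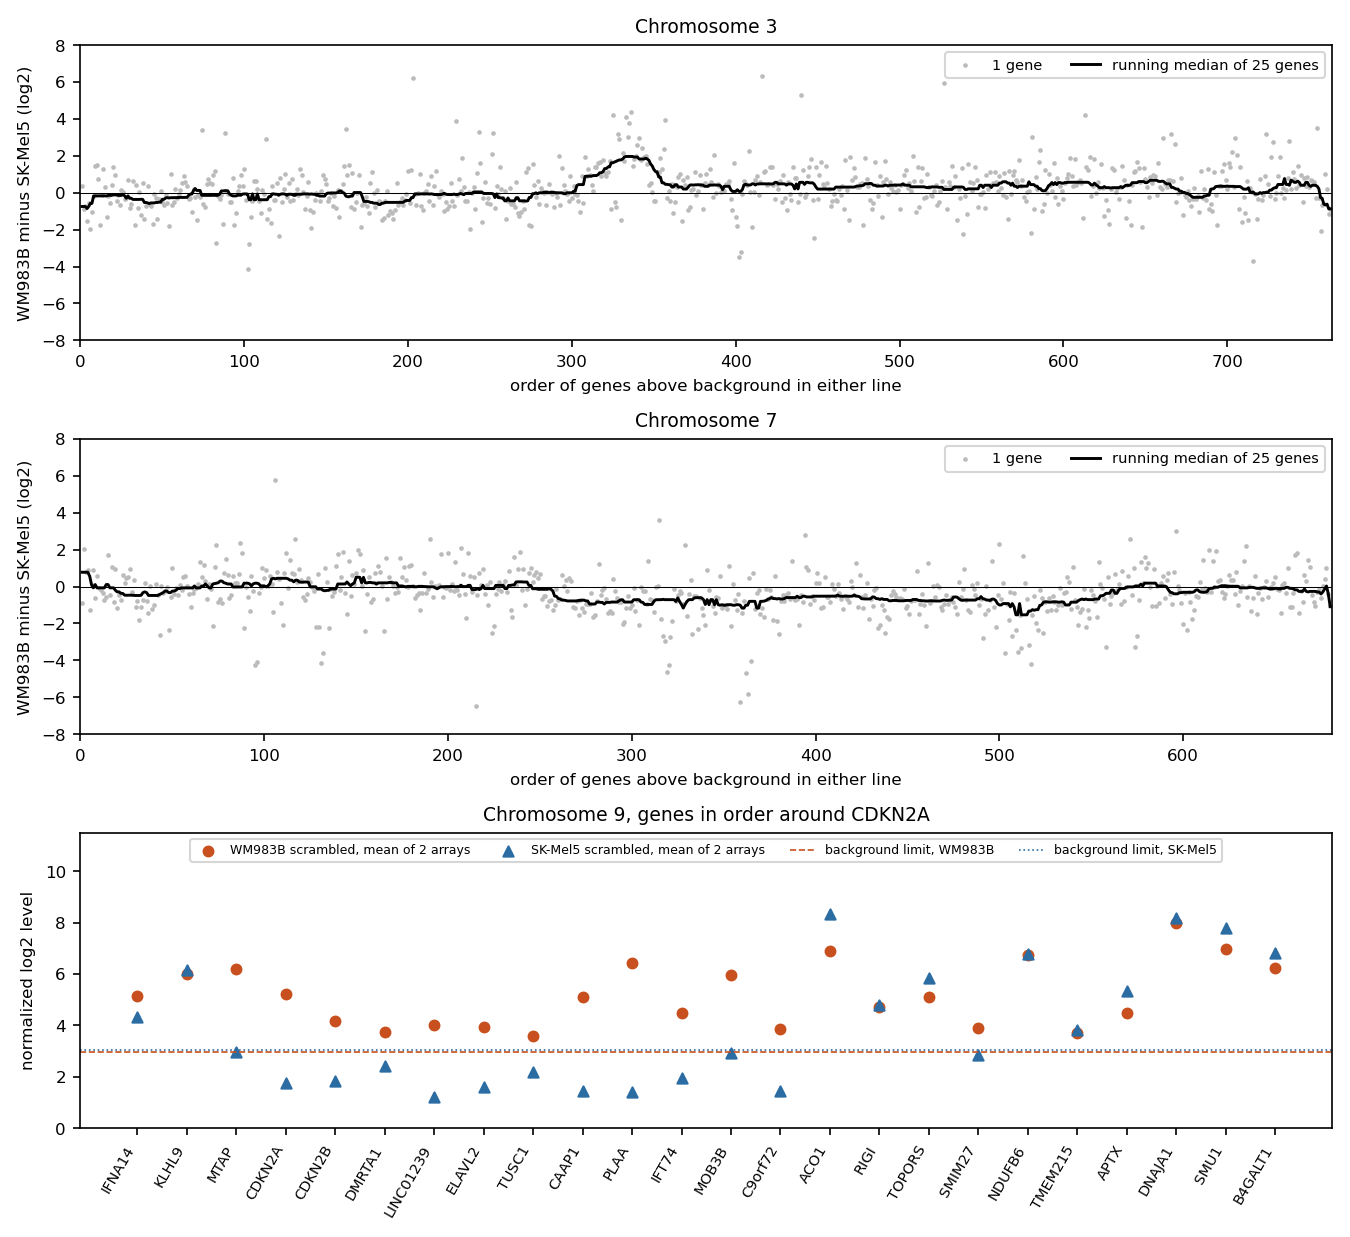
Differences between the lines in gene order, for genes above background in either line. The upper panels give each gene's difference (log2, WM983B minus SK-Mel5) along chromosomes 3 and 7 with the running median of 25 genes. The lower panel gives group mean levels of the genes around CDKN2A on chromosome 9, where the 12 genes shown from MTAP to C9orf72 lie above the WM983B limit in WM983B and below the SK-Mel5 limit in SK-Mel5.

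Of 11 inhibitors of cyclin-dependent kinases and other tumour suppressors, 3 were called higher and 5 lower in WM983B. In the shp300 arrays 3 were higher and 2 lower. CDKN1A, which encodes the inhibitor p21, was at 4.21 and 4.15 in WM983B, against 6.70 and 6.69 in SK-Mel5 (-2.52, adjusted p = 9.7e-06), and APC, the Wnt pathway suppressor, differed by -1.93. Among 15 cyclins and kinases of G1, 4 were higher and 3 lower. CCND1 (cyclin D1) was at 7.07 and 7.01 in WM983B, against 9.10 and 9.04 in SK-Mel5 (-2.03), and CCND2 was at least 3.47-fold lower. CCNE2 (cyclin E2) was at 7.10 and 6.79 in WM983B, against 4.28 and 4.33 in SK-Mel5 (2.64), and E2F7 was higher by 2.05 and E2F1, which drives S phase genes, by 1.60. In these genes, as in all 4383 called features, the arrays of the lines did not overlap, which follows largely from the call rule.

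Genes of DNA replication and mitosis were called in WM983B in 1 direction, higher. Of 25 S phase genes, 9 were called higher and 0 lower (median 0.81), and of 25 mitosis genes 14 were higher and 0 lower (median 1.11). At an unadjusted p under 0.05, 0 S phase and 1 mitosis genes had a negative difference. Both lists kept their direction relative to all features, but under MAD scaling the counts were 5 higher and 2 lower for S phase and 6 higher and 1 lower for mitosis. RRM2, a ribonucleotide reductase subunit, was at 10.54 and 10.59 in WM983B, against 8.29 and 8.31 in SK-Mel5 (2.26). RFC4, a clamp loader subunit, was higher by 2.18 and GINS1, a part of the replicative helicase, by 2.01. UBE2C, the ubiquitin enzyme of the anaphase-promoting complex, was at 7.68 and 7.64 in WM983B, against 4.89 and 5.27 in SK-Mel5 (2.58, or 5.99-fold). CCNB2 (cyclin B2) was at 8.17 and 8.07 in WM983B, against 5.66 and 5.48 in SK-Mel5 (2.55), and CDK1, its kinase, was at 7.80 and 7.72 in WM983B, against 5.48 and 5.38 in SK-Mel5 (2.33). NUSAP1, a spindle protein, was higher by 2.38 and CENPA, the histone of centromeres, by 2.07. FOXM1, a transcription factor of these genes, differed by 0.43 (adjusted p = 0.017) and was not called.

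The CCNB2 promoter is shown as an example of the mitosis genes, with 2 short sequences searched after the list's values were seen. ATTGG, which reads CCAAT on the other strand and is the box bound by NF-Y, was present in 16 of the 19 mitosis genes in the RefSeq table and in 35.7% of all promoters. TTTGAA, which reads TTCAAA on the other strand and is the element read by the complexes that hold mitosis genes down in resting cells, was present in 13 of 19 and in 15.4% of all promoters. The CCNB2 window (chr15:59104896-59105195, plus strand) held ATTGG or CCAAT 4 times, in capitals, and TTTGAA or TTCAAA 1 time.
CCNB2: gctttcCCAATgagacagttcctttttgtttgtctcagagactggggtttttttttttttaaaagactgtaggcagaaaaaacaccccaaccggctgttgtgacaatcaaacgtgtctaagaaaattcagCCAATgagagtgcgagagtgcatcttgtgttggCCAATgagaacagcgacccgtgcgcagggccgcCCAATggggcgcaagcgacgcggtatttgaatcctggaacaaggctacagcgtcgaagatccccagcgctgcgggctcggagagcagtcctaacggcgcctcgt

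Targets of p53 were more often lower than higher in WM983B. Of 19 measured p53 targets and death receptors, 10 were called lower and 2 higher, with a median of -1.05 that kept its direction. TIGAR, a regulator of glycolysis, was at 5.10 and 5.06 in WM983B, against 8.00 and 8.07 in SK-Mel5 (-2.95, adjusted p = 3.8e-06). SESN1, a stress-induced inhibitor of mTORC1 signalling, was at 4.88 and 4.55 in WM983B, against 7.14 and 7.18 in SK-Mel5 (-2.44). BAX, the pore-forming death protein, differed by -1.97, SESN2 by -1.88 and ZMAT3, an RNA-binding protein, by -1.83. Of 16 BCL2 family genes, 5 were lower and 2 higher. The share higher, 12.5%, was near the 14.7% of features above background in either line. BBC3 (PUMA) differed by -1.53, BMF by -1.42 and BCL2L1, which encodes the survival protein BCL-XL, by -1.22. PMAIP1 (NOXA) was higher by 1.03, with 6.23 and 6.0 in WM983B, against 5.36 and 4.83 in SK-Mel5, and was not called without replicate 1 of WM983B (0.92) or without replicate 2 of SK-Mel5 (0.76). Without either of those arrays the count of higher p53 targets was 1 in place of 2. The count of higher BCL2 family genes was 0 without replicate 1 of WM983B and 1 without replicate 1 of SK-Mel5.

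Read-outs of the ERK kinase pathway went in both directions, with 3 of 20 higher and 5 lower in WM983B. SPRY1, a feedback inhibitor, was at 5.34 and 5.47 in WM983B, against 8.17 and 8.14 in SK-Mel5 (-2.75). EGR1, an early response factor, was at 7.36 and 7.24 in WM983B, against 5.16 and 5.04 in SK-Mel5 (2.19), and FOSL1, an AP-1 subunit stabilised by ERK, was higher by 1.29. Of 18 AP-1 and immediate early genes, 4 were higher and 6 lower, with a median of -0.52 that kept its direction. NR4A3, an orphan nuclear receptor, was at 4.96 and 4.86 in WM983B, against 7.89 and 8.20 in SK-Mel5 (-3.13). ATF3 differed by -1.84, FOSL2 by -1.69 and FOS by -1.64.

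Genes of antigen presentation by HLA class II were more often higher than lower in WM983B. Of 14 class II genes, 7 were called higher and 0 lower in WM983B, with a median of 0.96 that kept its direction. At an unadjusted p under 0.05, 3 had a negative difference, and without replicate 1 of WM983B or without replicate 1 of SK-Mel5 the count called lower was 1. CD74, the invariant chain that class II molecules need for assembly, was at 8.82 and 8.96 in WM983B, against 1.49 and 1.96 in SK-Mel5 (at least 58.1-fold, adjusted p = 3.8e-07). HLA-DRA was at 7.08 and 6.81 in WM983B, against 1.41 and 1.68 in SK-Mel5 (at least 15.1-fold), and HLA-DPB1 was at 6.37 and 6.55 in WM983B, against 1.90 and 2.43 in SK-Mel5 (at least 10.8-fold). HLA-DPA1 was above background in both lines, at 7.65 and 7.74 in WM983B, against 5.17 and 5.13 in SK-Mel5 (2.55). CTSS (cathepsin S), which trims the invariant chain, was at least 5.99-fold higher, and HLA-DMB, which loads peptides, was higher by 1.58. Of 17 class I genes, 2 were higher (11.8%) and 1 lower (5.88%), against 14.7% and 13.3% of features above background in either line. The immunoproteasome subunits PSMB8 and PSMB9 were each higher by 1.21.

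Interferon response genes were higher in WM983B in 9 of 29 cases and lower in 1, with a median of 0.43 that kept its direction. The count lower was 2 without replicate 1 of WM983B, and 0 without replicate 2 of WM983B or replicate 1 of SK-Mel5. BST2 (tetherin, which holds virus particles on the cell) was at 7.84 and 7.97 in WM983B, against 1.53 and 1.63 in SK-Mel5 (at least 29.2-fold, adjusted p = 1.5e-07). IFI44 was at 5.79 and 5.30 in WM983B, against 1.31 and 0.74 in SK-Mel5 (at least 5.69-fold). OAS1, a sensor of double-stranded RNA, was at 7.49 and 7.60 in WM983B, against 3.86 and 4.10 in SK-Mel5 (3.57), and IFIH1, another such sensor, was higher by 2.13. Of 22 inflammatory and NF-kB genes, 5 were higher and 3 lower. The chemokine CCL2 was at 6.37 and 6.70 in WM983B, against 1.14 and 1.22 in SK-Mel5 (at least 11.4-fold), and ICAM1, an adhesion molecule for leukocytes, was higher by 2.69. Interleukin 6 (IL6) ran the other way, at 2.44 and 2.19 in WM983B, against 6.21 and 6.58 in SK-Mel5 (at least 10.9-fold lower), and so did TNFAIP3, an inhibitor of NF-kB (-2.01). Of 17 checkpoint ligands and adenosine enzymes, 1 was called in each direction, and the count higher was 0 to 2 when any 1 array was left out. ENTPD1, the ATP-degrading enzyme CD39, was at 4.0 and 3.80 in WM983B, against 7.71 and 7.74 in SK-Mel5 (-3.82).

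Cancer-testis antigens, germline genes that tumours can switch on, were called in WM983B in 1 direction, lower. Of 22 measured members with PRAME, 9 were called lower and 0 higher, and 1 had a positive difference at an unadjusted p under 0.05. The median of -0.54 kept its direction. PRAME was at 2.33 and 2.39 in WM983B, against 9.09 and 9.02 in SK-Mel5 (at least 68.7-fold lower, adjusted p = 2.9e-07). MAGEC2 was at 3.10 and 3.03 in WM983B, against 7.55 and 7.41 in SK-Mel5 (-4.41), and MAGEA6 differed by -2.91. The related features GAGE13 and CT45A5, named among the leading genes, were at least 28.6-fold and 51.9-fold lower. In WM983B 7 of the 22 members were above background, against 13 in SK-Mel5.

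Of 29 HOX genes, which record position along the body axis, 13 were called higher and 3 lower in WM983B, with a median of 0.62 that kept its direction. On percentile ranks the count of higher members was 7. HOXB2 was at 7.44 and 7.25 in WM983B, against 1.74 and 1.35 in SK-Mel5 (at least 19.9-fold, adjusted p = 4.3e-06). HOXB9 was higher by 2.89 and HOXB7 by 2.31, and HOXB4 was at least 2.22-fold higher. From the D cluster, HOXD13 was at 3.61 and 3.43 in WM983B, against 6.53 and 6.70 in SK-Mel5 (-3.10), and HOXD1 differed by -3.04. Imprinted genes, which are read from 1 parental copy, had 5 of 20 members lower and 0 higher. PEG10, a retrotransposon-derived gene, was at 3.11 and 2.89 in WM983B, against 9.23 and 9.30 in SK-Mel5 (-6.27), and DLK1, a Notch-related factor, was at 2.45 and 2.55 in WM983B, against 6.64 and 6.79 in SK-Mel5 (at least 13.6-fold lower). The median of the imprinted list was -0.13 and changed sign relative to all features under MAD scaling. It was -0.08 without replicate 2 of WM983B, and -0.06 and -0.23 without replicates 1 and 2 of SK-Mel5.

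Among 24 granin and neuronal genes, 3 were higher and 5 lower in WM983B. NEFL, a neurofilament protein, was at 4.70 and 5.15 in WM983B, against 9.99 and 10.00 in SK-Mel5 (-5.07, adjusted p = 5.5e-07). SYP (synaptophysin), a synaptic vesicle protein, differed by -3.68, CHGA (chromogranin A) was at least 2.27-fold lower, and MAP2, a microtubule protein of dendrites, was higher by 2.16. Of 18 S100 genes, 3 were higher and 3 lower. Besides S100B, S100A6 was at 6.73 and 6.78 in WM983B, against 1.81 and 2.20 in SK-Mel5 (at least 13.2-fold), and S100A3 was at least 3.82-fold higher.

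Metallothioneins, small proteins that bind zinc and copper, had 4 of 10 measured members higher and 0 lower in WM983B, and 2 with a negative difference at an unadjusted p under 0.05. The median of 0.52 kept its direction. MT2A was at 11.80 and 11.69 in WM983B, against 8.34 and 8.23 in SK-Mel5 (3.46, or 11-fold, adjusted p = 5.4e-07). MT1E was at 7.01 and 7.40 in WM983B, against 1.31 and 1.34 in SK-Mel5 (at least 18.0-fold), and MT1X was higher by 1.79. Without replicate 1 of WM983B, or without replicate 1 of SK-Mel5, 1 member was called lower, and without that SK-Mel5 array the median was 0.34. The MT2A promoter (chr16:56608334-56608633, plus strand) is shown for the core of the metal response element, TGCACNC or TGCGCNC on either strand, searched after the values were seen. All 5 metallothioneins that RefSeq's table held carried it, against 29.3% of all promoters, and MT2A held it 8 times, in capitals.
MT2A: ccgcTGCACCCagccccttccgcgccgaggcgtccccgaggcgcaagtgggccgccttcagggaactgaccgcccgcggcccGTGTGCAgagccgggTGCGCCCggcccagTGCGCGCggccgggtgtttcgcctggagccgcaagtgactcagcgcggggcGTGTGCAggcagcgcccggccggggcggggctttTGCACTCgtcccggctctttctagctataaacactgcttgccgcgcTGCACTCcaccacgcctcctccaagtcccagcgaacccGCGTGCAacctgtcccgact

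Lipid synthesis genes were more often lower than higher in WM983B. Of 19 genes of cholesterol and fatty acid synthesis, 6 were called lower and 0 higher, with a median of -0.62 that kept its direction, and 3 had a positive difference at an unadjusted p under 0.05. DHCR7, the last enzyme of cholesterol synthesis, was at 8.66 and 8.83 in WM983B, against 10.25 and 10.43 in SK-Mel5 (-1.59, adjusted p = 3.4e-05). FASN (fatty acid synthase) differed by -1.46, ACLY, which makes cytosolic acetyl-CoA, by -1.28 and SCD, which desaturates fatty acids, by -1.18. Nuclear genes of the respiratory chain had 1 of 19 members higher and 2 lower, and 2 were higher without replicate 2 of WM983B or replicate 1 of SK-Mel5. The median of the respiratory list was -0.39 (-0.30 without replicate 2 of WM983B) and kept its direction. At an unadjusted p under 0.05, 12 of its members had a negative and 3 a positive difference. Of 22 hypoxia and glycolysis genes 3 were called in each direction. ADM (adrenomedullin) was at 2.84 and 3.21 in WM983B, against 5.80 and 6.16 in SK-Mel5 (-2.95), SLC2A3, a glucose transporter, differed by -2.17 and the neuronal enolase ENO2 by 1.56.

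Of 20 NRF2 targets, glutathione transferases and aldehyde dehydrogenases, 6 were higher and 3 lower in WM983B. ALDH1A3, which makes retinoic acid, was at 7.80 and 8.03 in WM983B, against 2.47 and 1.98 in SK-Mel5 (at least 29.5-fold, adjusted p = 5.4e-07), and ALDH1A1 was at least 7.36-fold higher. ALDH2, the mitochondrial enzyme, was at 2.84 and 3.04 in WM983B, against 5.26 and 5.19 in SK-Mel5 (at least 4.83-fold lower). HMOX1 (heme oxygenase 1) differed by -1.81, with 6.91 and 7.10 in WM983B, against 8.68 and 8.94 in SK-Mel5.

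EP300, the gene targeted in the study's other arrays, was at 6.51 and 6.63 in WM983B, against 7.74 and 7.46 in SK-Mel5 (-1.03, SE 0.16, adjusted p = 0.0012). This call lies at the 2-fold limit. The difference was -0.98 without replicate 1 of WM983B and -0.89 without replicate 1 of SK-Mel5, neither called, and 0.11 in the deposited values. Its paralog CREBBP was at 6.51 and 6.47 in WM983B, against 7.29 and 7.16 in SK-Mel5 (-0.74), and was not called. Among 26 acetyltransferases, deacetylases and Polycomb genes, 2 were higher and 4 lower. EZH2, the Polycomb methyltransferase, was at 7.96 and 7.87 in WM983B, against 6.05 and 5.97 in SK-Mel5 (1.91), while KAT6A, an acetyltransferase, differed by -1.26 and HDAC5, a deacetylase, by -1.42. Without replicate 1 of SK-Mel5, 2 members of the list were called lower in place of 4.

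Markers of other cell types were read in the same arrays. Of 9 keratinocyte markers, 1 was above background in WM983B and 1 in SK-Mel5, with summed linear levels of 41.9 and 40.4 in WM983B, against 45.4 and 41.4 in SK-Mel5. None was called (1 lower without replicate 1 of WM983B or replicate 2 of SK-Mel5), and KRT14 had the largest difference (-0.84). Of 9 endothelial markers, 2 were above background in each line, with none called, and ESAM differed most (-0.34, adjusted p = 0.25). Of 10 fibroblast markers, 5 were above background in each line, with a median difference of -0.36. Of these markers 1 was called higher (2 without replicate 1 of either line) and 1 lower. The lower one was DCN, a matrix proteoglycan, at 4.02 and 3.97 in WM983B, against 5.16 and 4.89 in SK-Mel5 (-1.03, but -0.89 and not called without replicate 1 of SK-Mel5, and 0.24 in the deposited values). FAP, a protease of activated fibroblasts, was at 6.24 and 6.07 in WM983B, against 1.60 and 1.50 in SK-Mel5 (at least 8.71-fold), while the summed linear level of the list was 885 and 772 in the WM983B arrays, against 1091 and 1100 in the SK-Mel5 arrays. Of 9 leukocyte markers, 4 were above background in WM983B and 2 in SK-Mel5. LYZ (lysozyme) was at 4.54 and 4.58 in WM983B, against 1.34 and 2.06 in SK-Mel5 (at least 2.89-fold), with a summed linear level of 79.3 and 76.7 in WM983B, against 50.1 and 50.2 in SK-Mel5. Of these 9 markers, PTPRC, CD3E, MS4A1, CD14 and ITGAM were near background in both lines. Of 7 markers of HEK293T, the line commonly used to package lentivirus, 3 were above background in WM983B and 2 in SK-Mel5, with 1 higher (CDH2) and 1 lower (NEFL). Their summed linear level was 226 and 247 in WM983B, against 1061 and 1064 in SK-Mel5. NEFL alone made up most of the SK-Mel5 sum and CDH2 most of the WM983B sum, so the gap largely restates those genes. The part of other cells in the class II, interferon, matrix and neuronal differences was not tested.

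Differences also followed gene order. Over 13735 windows of 25 neighbouring genes above background in either line, the central 90% of window medians lay between -0.62 and 0.61. The highest window, on chromosome 3 from PXK to ARL6IP5, had a median of 1.96, with 20 of its 25 genes called higher in WM983B and 1 lower. In the shp300 arrays, which were not used to find it, the same window had a median of 2.14. The second, from RIPOR2 to H2BC9 on chromosome 6, held the histone gene cluster and had a median of 1.54 (17 higher, 1 lower). Most of its genes are histone genes, whose near-identical copies can share probe signal, so these calls may not be separate. The third, from SNORD45A to MCOLN3 on chromosome 1, had a median of 1.36 (14 of 25 called higher, 0 lower). It held the interferon genes IFI44 and IFI44L. That many of its genes were higher follows from choosing the window for its median.

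The 3 lowest windows all lay on chromosome 7. The window from SMIM30 to GPR37, which holds MET, had a median of -1.53 (14 genes lower, 2 higher). The window from FAM133B to LMTK2, which holds PEG10 and PDK4, had -1.17 (14 lower, 1 higher), and that from GNAI1 to CDK14, which holds SEMA3A, SEMA3C and SEMA3E, also had -1.17 (13 lower, 1 higher). In the shp300 arrays their medians were -1.45, -0.71 and -1.06. Over whole chromosomes the lowest medians were those of chromosome 7 (-0.37, 680 genes) and chromosome 13 (-0.35, 247 genes), and the highest those of chromosome 15 (0.34, 464 genes) and chromosome 20 (0.32, 420 genes). These medians are descriptions with no test, and the windows were chosen for their values.

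The same lines were compared again in the 4 arrays carrying shp300, whose group means share no array with the scrambled means. Both comparisons came from 1 fit of all 8 arrays, normalized together, and share its estimate of the spread. They are therefore not fully independent. The shp300 comparison called 4785 features (20.1%). Of the 4383 scrambled calls, 3142 were called in the same direction, 71.7% of the scrambled calls and 65.7% of the shp300 calls, and 4 in the opposite direction. The sign was the same for 97.7% of the scrambled calls. The pigment genes did not repeat their split. In the shp300 arrays 0 of the 21 pigment genes were called higher and 8 lower in WM983B. TYRP1 differed by -5.43 there and by -1.83 in the scrambled arrays, OCA2 by -4.39 and -1.57, and MLPH by 0.67 and 1.92, each pair in that order. Mitosis genes had 20 of 25 members higher in the shp300 arrays and HLA class II genes 6 of 14. S phase genes had 5 of 25 higher and 0 lower there, with a median of 0.34, against 9 and 0 with a median of 0.81 in the scrambled arrays, and 4 members had the same call in both. AP-1 and immediate early genes had a median of 0.24 in the shp300 arrays and -0.52 in the scrambled arrays. The p53 targets had 11 of 19 lower there and 2 higher. Cholesterol and fatty acid genes had 5 of 19 higher and 2 lower in the shp300 arrays, against 0 and 6 in the scrambled arrays, and receptor kinases 4 of 29 higher and 3 lower, against 3 and 9.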

How the data were processed

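RNA from 8 samples of WM983B and SK-Mel5 cells (2 arrays for each line and shRNA) was hybridised to 1-colour Affymetrix arrays. The authors deposited log2 values of RMA, 1 per gene feature, made with affy 1.36.1 in R 2.15.1 per the submitters' processing notes. No column was left unused (0). Probe signals and scan batches were not used here, so the precision rests on the number of arrays. Of the 23786 features, 22458 had 1 gene symbol, 0 had several and 1328 had none.

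The deposited values were quantile-normalized together and fitted with limma 3.58.1 in R 4.3.3 as a model of 4 groups, with the contrast WM983B minus SK-Mel5. The p-values are two-sided and Benjamini-Hochberg adjusted over all features. The script was tested on simulated data in which few features differed between the lines. That test does not cover a difference as broad as the one found here. Named genes were EP300, CREBBP, MITF, FOXM1, the 15 largest called differences in each direction, the 10 largest among genes above background in both lines, pigment and lineage genes, and up to 6 called members of each other list. The members and lists were chosen with earlier results of these data known. Alternatives were other scalings, filters, fold limits, array weights, a trend in the variance, the 4 scrambled arrays alone, a replicate block and each array left out. The 3 motifs other than CATGTG, and counts over list members above background, were added after seeing the data.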

Additional observations from a re-analysis of the deposited data

Results flagged for a closer look

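The difference between the lines was itself different in the scrambled and the shp300 arrays for 66 of the 215 genes named here, by an interaction term in limma (adjusted p under 0.05, adjusted over all features, and at least a 2-fold gap). Over all features this held for 1081 of 23786. Many of the named genes were chosen for large called differences in the scrambled arrays, and the same values enter the gap. Large gaps were therefore favoured among them, and the 2 counts cannot be set against each other. Values in parentheses after a gene are its scrambled line difference minus its shp300 line difference on the log2 scale. The 2 line differences come from separate arrays.

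Among pigment, lineage and melanocyte genes, the line difference of those past the threshold was lower in the shp300 arrays, except in APOE. TYRP1 had a gap of 3.60 (-1.83 in scrambled and -5.43 in shp300 arrays, adjusted p = 0.00033), and MITF one of 1.48 (0.40 and -1.08 in the same order, adjusted p = 0.0070), so the sign of MITF differed between them. The same direction held for OCA2 (2.82), MLANA (2.21), MLPH (1.24), HPS1 (1.12), BLOC1S1 (1.04), ID3 (1.91), SNAI2 (1.33), SOX2 (1.05), TBC1D16 (1.47) and KIT (1.91). APOE, an MITF target, had a gap of -1.27. Among the leading genes, STC1 had a gap of -4.45 (-5.96 in scrambled and -1.52 in shp300 arrays, adjusted p = 0.00046), followed by PKD1L1-AS1 (-3.0), A2M (-2.88), PEG10 (-2.45), H3C11 (2.07), GCSAML (-1.84), SERPINH1 (-1.66), ANXA1 (1.51), CAPG (1.46), LINC02946 (1.45), MGP (-1.33), ITGB3 (-1.32) and IL13RA2 (1.07).

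Genes of adhesion, matrix and invasion were PLAUR (-2.55), ITGA9 (2.16), FAP (-1.74), TGFBI (-1.53), SNAI1 (-1.5), ITGA4 (-1.48), SERPINE2 (-1.29), THBS1 (-1.23), LOXL2 (-1.18) and CDH2 (-1.08). Receptors, guidance genes and secreted factors were PMEPA1 (-3.04), FGFR1 (-2.74), NRP1 (-2.60), SEMA3C (-2.58), DKK1 (-2.01) and SEMA3A (-1.60). In FGFR1 the sign differed, at -2.29 in scrambled and 0.45 in shp300 arrays. Cell cycle, death and early response genes were CDKN2B (-3.71), PMAIP1 (-2.47), CCND1 (-1.66), APC (-1.18), BAX (1.15), FOSL2 (-1.13) and E2F1 (1.05), with MOB3B (1.32) from the stretch next to CDKN2A. Immune genes were CCL2 (-2.83), LYZ (-2.20), MAGEA6 (1.63), IL6 (1.45), HLA-DRA (1.16) and HLA-DPA1 (1.15). The rest were MT1X (-2.10), CHGA (1.90), SYP (-1.69), ALDH1A3 (-1.68), SLC2A3 (-1.58), HMOX1 (1.51), S100A3 (-1.43), HOXD1 (-1.23), ADM (-1.18) and MT2A (-1.14).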

How the results depend on the processing

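The scaling moved the balance of directions most. In the deposited values 11481 features were called (11085 higher and 396 lower in WM983B), with 414 list members higher and 45 lower, and the shp300 arrays gave 11399 (10982 higher, 417 lower). Centring gave 3854 lower (3954 in shp300 arrays) and window medians of 1.71 on chromosome 3 and 1.25 on chromosome 1. MAD scaling gave 1518 higher and 4772 lower (4954 lower in shp300 arrays) and 249 list members lower. Its window medians were 1.27, 0.69 and 0.43 on chromosomes 3, 6 and 1, and -1.86, -1.69 and -1.76 for the SMIM30, FAM133B and GNAI1 windows of chromosome 7. The sign turned for DCN (0.24), EP300 (0.11) and KLHL9 (1.06) in the deposited values, and for GPNMB (-2.14), GPR143 (-1.48), PMEL (-1.83), SLC24A5 (-0.050) and SOX10 (-1.08) under MAD scaling. The cause was not tested, apart from the shift of all features given above. Among features above background in both lines 1434 were higher (1600 in shp300 arrays), since fewer were tested. At any fold 11512 passed (5529 higher, 5983 lower), with 263 and 250 list members, and 11946 in shp300 arrays (5663 higher, 6283 lower). At 4-fold 1038 passed (561 higher, 477 lower), with 68 and 52 list members, and 1249 in shp300 arrays (721 higher, 528 lower). Leaving out 1 scrambled array gave 4269 to 4572 called (2241 to 2357 higher, 2028 to 2215 lower), with 157 to 164 list members higher and 138 to 140 lower, against 159 and 139. In those fits the 1 array left for a line borrowed its spread from the remaining groups. Cyclic loess gave 4391, percentile ranks 4314 and the 4 scrambled arrays alone 4397. With the replicate number as a block, 4378 features were called (2304 higher, 2074 lower). The replicate deviations of the WM983B scrambled and SK-Mel5 scrambled arrays correlated at r = -0.013. Other pairs of groups were not compared, so whether same-numbered arrays share a culture or a run is not known. With 2 arrays of 1 line per group, no result separates the line from the way its arrays were handled, and the call of a gene dim in 1 line rests on few signals above background.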
